A study of Rattus norvegicus with 12 samples.

Results

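The proteasome is assembled from more than 1 kind of subunit, and its genes are named PSMA to PSMG by the particle or helper they encode. Rows of the deposited expression table were taken as proteasome genes where the symbol was PSM, a letter from A to G and a digit, and where the average over all 12 columns reached 1 RPKM (reads per kilobase of transcript, scaled to the number of mapped reads). The rule found 42 genes among the 14692 listed, from 43 rows with such a symbol. The row left out was PSMB11, a catalytic subunit made in the thymus, whose mean was 0.009 RPKM. Of the 42 genes, 7 encode the alpha ring and 7 the constitutive beta ring of the core particle, 3 the beta subunits of the immunoproteasome, 6 the ATPases and 10 the non-ATPase subunits of the regulatory particle, 3 chaperones of the regulatory particle (PSMD5, PSMD9 and PSMD10), 3 proteasome activators and 3 chaperones of the core particle. The core, regulatory and regulatory chaperone genes without the immunoproteasome are together called the 33 26S genes. A row under the symbol PSMA3L was read as the alpha subunit PSMA3, since RefSeq lists that name as its synonym.

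Whole livers of male Sprague Dawley rats, 4 to 5 months old, were sequenced at 0, 4, 12 and 24 h after partial hepatectomy (PH), in groups titled Control, BF and BA. Surgery preceded PH by 24 h in every group and was a sham operation in Control and a biliary fistula, which drains bile out of the body, in BF and BA. All rats also carried a duodenal catheter with saline, and 1 of the fistula groups received sodium taurocholate, a bile acid (BA), at 0.5 mg/g/day, starting 12 h ahead of the hepatectomy. The sample titles and descriptions disagree on which fistula group that was, so that BF and BA are used here only as titles, and which of them received the bile acid cannot be told from the labels. In the study's text BF stands for the fistula without infusion, as in the titles, whereas the descriptions give the infusion to the columns titled BF. CYP7A1, the rate-limiting enzyme of bile acid synthesis, which is repressed when bile acids return to the liver, was at 387 RPKM in the BF column at 0 h, at 60.0 RPKM in Control and at 54.9 RPKM in BA. Each of the 12 columns was combined by the authors from 2 sequencing runs, 1 on the RNA of 1 rat and 1 on the pooled RNA of 3 rats. Each value is therefore 1 number for 4 rats, with no error. The spread between rats cannot be estimated, and no p-value is given.

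The core particle is a barrel of alpha and beta rings that cuts proteins inside its chamber. The regulatory particle sits on the end of the barrel, recognises proteins tagged with ubiquitin, removes the tag and uses ATPases to unfold them and feed them in, and dedicated chaperones guide the assembly of both particles. Interferon induces the immunoproteasome forms of the catalytic beta subunits, which favour peptides for antigen presentation. In dividing cells the proteasome removes cyclins and other regulators of the cell cycle.

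Sequencing depth is unknown, since the table holds no read counts. Column sums ran from 727435 to 982826 RPKM, and the median of the 8459 genes that averaged 1 RPKM or more lay between 8.68 and 14.3 RPKM. The BA column at 4 h stood apart, with 30.9% of its sum on ALB (albumin) and the lowest median gene. The BF column at 12 h held pancreatic acinar transcripts that summed to 133 RPKM, against 0.46 to 2.21 RPKM in the other columns. Hepatocyte genes were abundant throughout, with 4 of 5 listed markers found and a summed level of 70589 to 336272 RPKM. In bulk tissue, fewer cells of a type and less RNA per cell cannot be told apart.

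As deposited, proteasome transcripts were highest at 24 h after PH in all groups. The 42 genes summed to 3158, 2992, 3555 and 4532 RPKM in Control at 0, 4, 12 and 24 h, to 2488, 2764, 2850 and 3699 RPKM in BF, and to 2840, 2442, 3176 and 4488 RPKM in BA. As a share of all RPKM they made up 0.424% or less at 0 and 4 h and between 0.4999% and 0.618% at 24 h. At 24 h, 40 of 42 genes were higher than at 0 h in Control (68.6% of all 8459 genes), 41 in BF (72.5%) and 40 in BA (69.3%). For 32 of 42 genes every 24 h column was above every 0 h column, which held for 40.1% of all genes. With every column rescaled to the same median gene, this held for 21 of 42 genes and 18.5% of all genes.

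A gene is said to rise or fall here where the ratio of its values, after 1 RPKM was added to each, was 1.5-fold or more. By this measure 15 of 42 genes rose between 0 h and 24 h in Control (21.5% of all genes), 18 in BF (25.3%) and 20 in BA (10.7%), and none fell. The median log2 ratio of the 33 26S genes was 0.50 in Control, 0.56 in BF and 0.58 in BA, beside 0.21, 0.28 and 0.15 for all genes. Part of the rise was shared by the whole table, because the median gene itself was higher at 24 h. With every column rescaled to the same median gene, the medians of the 26S genes were 0.17 in Control, 0.15 in BF and 0.34 in BA, and 2, 3 and 13 of the 42 genes rose. The peak time also depended on the scaling. As deposited, 24 h was the highest time for 38 of 42 genes in Control, 38 in BF and 36 in BA. The shares of all genes were 52.6%, 55.3% and 49.7%. After rescaling, 24 h was highest for 9, 10 and 26 genes, or 21.4%, 23.8% and 61.9%, beside 16.9%, 18.7% and 16.2% of all genes. Then 12 h was highest for 26, 17 and 11 genes, or 61.9%, 40.5% and 26.2%, beside 29.9%, 18.1% and 26.2% of all genes.

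**Figure D1:**
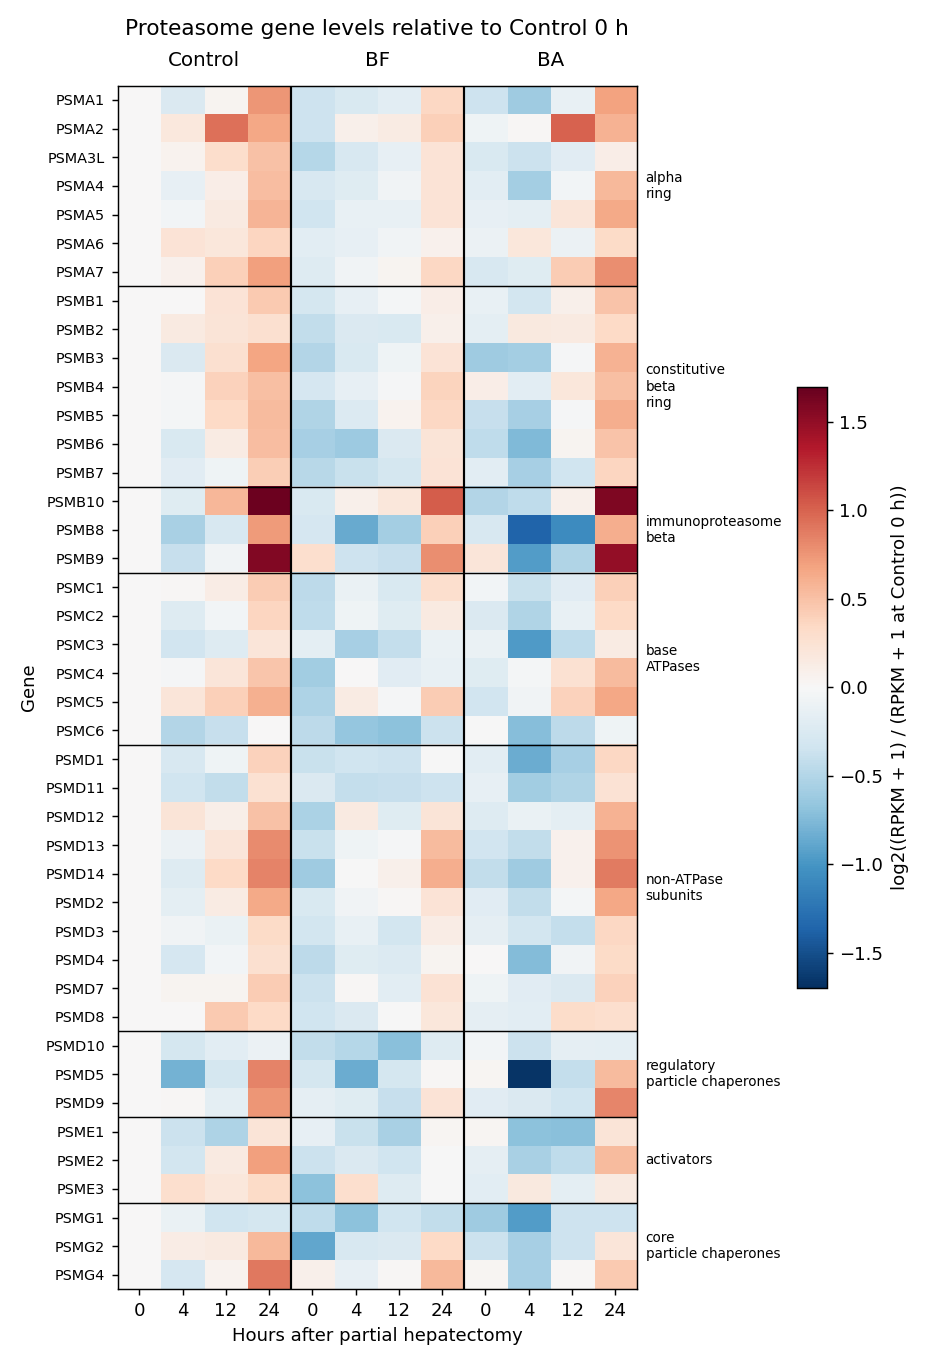
Heat map of the 42 proteasome genes (rows, grouped by class) in the 12 columns (Control, BF and BA at 0, 4, 12 and 24 h), as log2 of RPKM plus 1 relative to the Control column at 0 h. As deposited, the 24 h columns are the reddest in each group, most of all for PSMB9 and PSMB10, and the BA column at 4 h holds the deepest blue, for PSMD5.

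The alpha ring, which gates the entry to the chamber, was higher at 24 h than at 0 h in 7 of 7 genes in each group. The shares of all genes were 68.6% in Control, 72.5% in BF and 69.3% in BA. PSMA7 was at 149, 158, 198 and 243 RPKM in Control at 0, 4, 12 and 24 h, at 129, 143, 154 and 190 RPKM in BF, and at 124, 129, 202 and 260 RPKM in BA. PSMA1 was at 116, 98.2, 120 and 196 RPKM in Control, at 90.6, 96.5, 103 and 148 RPKM in BF, and at 91.1, 76.3, 106 and 187 RPKM in BA. PSMA1 rose in all 3 groups, by 1.63-fold to 2.05-fold, and PSMA7 rose in Control and BA, by 1.62-fold and 2.10-fold, with a ratio of 1.48 in BF. The smallest difference of the ring was that of PSMA6, at 115, 135, 132 and 148 RPKM in Control, 101, 104, 110 and 120 RPKM in BF, and 107, 132, 107 and 144 RPKM in BA. PSMA2 differed in timing, at 128, 145, 247 and 203 RPKM in Control, 100, 136, 141 and 170 RPKM in BF, and 122, 129, 257 and 194 RPKM in BA. It peaked at 12 h in Control and BA and at 24 h in BF, and was singled out after its values were seen.

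The constitutive beta ring was higher at 24 h in 7 of 7 genes in each group as well, beside the same shares of all genes. With columns rescaled to the same median gene, 13, 12 and 14 of the 14 genes of both rings were higher in Control, BF and BA. PSMB3, a structural subunit without a catalytic site, was at 58.8, 49.4, 71.4 and 94.0 RPKM in Control, at 41.4, 48.8, 55.7 and 69.5 RPKM in BF, and at 38.4, 39.2, 57.9 and 88.8 RPKM in BA. Its ratio of 24 h to 0 h was 1.60 in Control, 1.68 in BF and 2.31 in BA. PSMB2, also structural, had the smallest difference of the ring, at 103, 115, 120 and 125 RPKM in Control, 76.8, 86.7, 86.5 and 110 RPKM in BF, and 91.9, 116, 114 and 130 RPKM in BA. PSMB4 was the most abundant proteasome gene, with a mean of 288 RPKM and values from 213 RPKM (BF, 0 h) to 372 RPKM (BA, 24 h).

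The catalytic sites are carried by PSMB5 (chymotrypsin-like), PSMB6 (caspase-like) and PSMB7 (trypsin-like). PSMB5 was at 106, 104, 135 and 154 RPKM in Control, at 74.4, 90.6, 111 and 136 RPKM in BF, and at 81.0, 71.5, 104 and 163 RPKM in BA. PSMB7 was at 156, 136, 148 and 208 RPKM in Control, at 112, 119, 127 and 184 RPKM in BF, and at 137, 105, 123 and 201 RPKM in BA. As deposited, the lowest value of both lay at 4 h in Control and BA but at 0 h in BF. For PSMB5 in Control the margin was small, at 104 RPKM against 106 RPKM at 0 h, and the order was not recomputed after rescaling. PSMB6 was listed far below its partners, at 14.5, 12.0, 16.1 and 21.3 RPKM in Control, 9.51, 9.11, 12.0 and 17.0 RPKM in BF, and 10.47, 8.20, 15.0 and 20.6 RPKM in BA. RefSeq lists further loci named after PSMB6, so that its reads may have been split and its level is uncertain.

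The immunoproteasome forms PSMB8, PSMB9 and PSMB10 take the places of PSMB5, PSMB6 and PSMB7, and their transcripts moved over a wider range than those they replace. PSMB9 was at 24.0, 18.0, 23.0 and 73.6 RPKM in Control, at 29.5, 18.6, 18.0 and 42.3 RPKM in BF, and at 27.96, 12.0, 16.5 and 69.4 RPKM in BA. PSMB10 was at 28.6, 24.7, 42.7 and 92.7 RPKM in Control, at 23.7, 30.4, 33.0 and 59.4 RPKM in BF, and at 19.98, 21.0, 30.6 and 88.0 RPKM in BA. PSMB8 was at 55.4, 37.4, 45.6 and 92.1 RPKM in Control, at 45.4, 30.2, 36.7 and 73.4 RPKM in BF, and at 45.5, 20.9, 25.9 and 85.3 RPKM in BA. In every group the highest value of all 3 genes was that of 24 h. As deposited, the highest column exceeded the lowest 6.15-fold for PSMB9, 4.64-fold for PSMB10 and 4.41-fold for PSMB8, against 2.28-fold, 2.60-fold and 1.98-fold for PSMB5, PSMB6 and PSMB7. Except for PSMB10, the lowest column was BA at 4 h, the one with the lowest median gene.

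Between 0 h and 24 h all 3 genes rose in Control and BA, and PSMB8 and PSMB10 rose in BF, where the ratio of PSMB9 was 1.43. The median log2 ratio was 1.58 in Control, 0.68 in BF and 1.28 in BA, and 1.24, 0.28 and 1.04 with columns rescaled to the same median gene. The 3 genes were all higher at 24 h than at 12 h, and the median log2 ratio of 24 h to 12 h was 1.10 in Control, 0.98 in BF and 1.68 in BA, and 0.55, 0.53 and 1.28 after the rescaling. PSMB10 rose 3.24-fold in Control, 2.50-fold in BF and 4.40-fold in BA. Of the summed RPKM of the 6 catalytic subunits, the immunoproteasome forms held 28.1%, 24.1%, 27.1% and 40.2% in Control at 0, 4, 12 and 24 h. The share was 33.5%, 26.6%, 26.01% and 34.2% in BF, and 29.0%, 22.6%, 23.1% and 38.7% in BA. At 24 h it was thus lowest in BF, and at 0 h highest in BF. The ratio of 24 h to 0 h was smaller in BF than in Control for 3 of 3 genes (40.0% of all genes). It was also smaller in BF than in BA for 3 of 3 genes (32.5% of all genes).

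**Figure D2:**
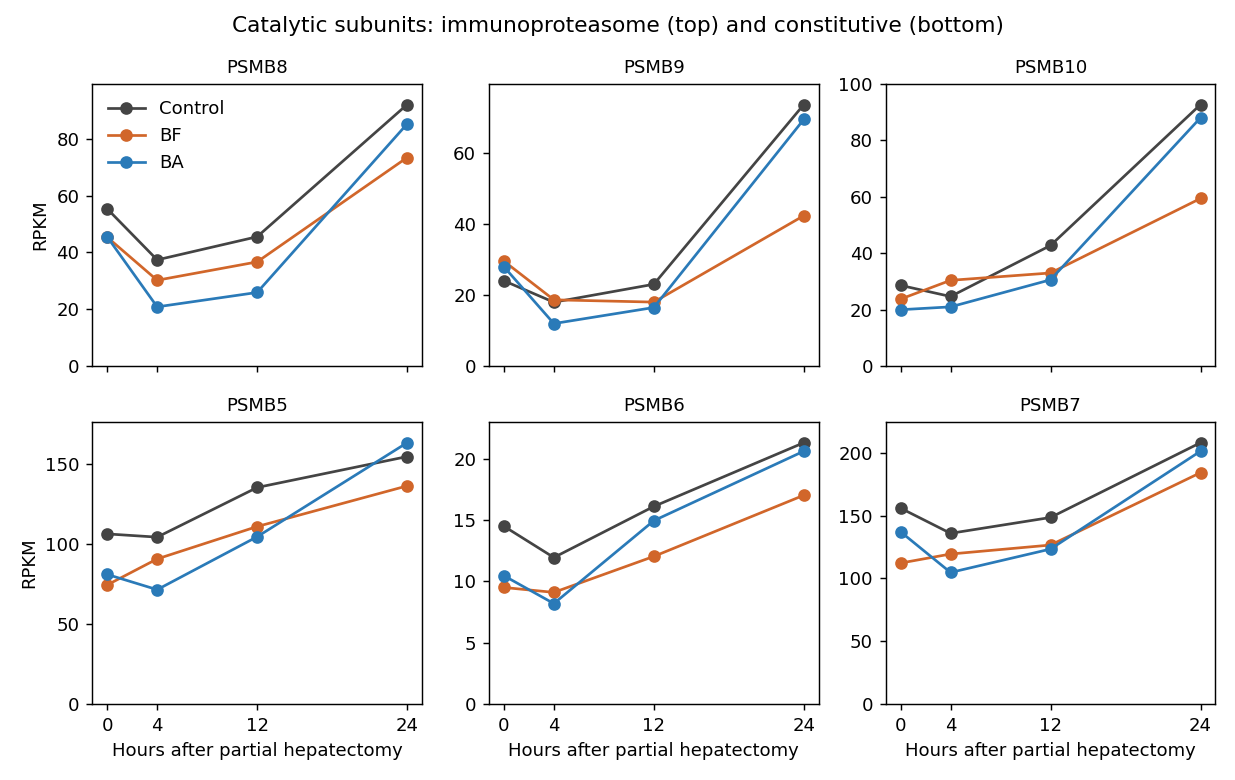
RPKM of the immunoproteasome subunits PSMB8, PSMB9 and PSMB10 (top) and of the constitutive subunits PSMB5, PSMB6 and PSMB7 that they replace (bottom) against hours after PH, with 1 line per group and 1 value per point. The top row climbs after 12 h, to 92.7 RPKM for PSMB10 in Control and 59.4 RPKM in BF, and the bottom row spans less of a range relative to its lowest value.

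Leukocytes express the immunoproteasome strongly, so markers of blood and Kupffer cells are given beside it. Of 13 listed markers, 11 were found and 7 averaged 1 RPKM or more. Their summed level was 188 to 265 RPKM over the 0 h columns and 157 to 193 RPKM over the 24 h columns, lower at 24 h than at 0 h in each group, with most of the sum on CLEC4F and CD74. Gene by gene, 0 of the 7 were higher at 24 h in Control, 4 in BF (PTPRC, CD68, CD163 and CD8A) and 1 in BA (CD163), with log2 ratios of at most 0.28. Of the T cell markers, CD3E and CD3D stood at 0.88 RPKM or less in every column, and CD8A at 0.62 to 2.52 RPKM. Of 10 other genes of antigen processing and interferon response, 8 were higher at 24 h than at 0 h in Control, 8 in BF and 4 in BA, beside 68.6%, 72.5% and 69.3% of all genes. TAP1, which carries peptides into the endoplasmic reticulum, was at 8.54 and 19.8 RPKM at 0 h and 24 h in Control, at 10.6 and 14.9 RPKM in BF, and at 11.1 and 11.2 RPKM in BA. IFI47, of the same list, was at 9.90 and 16.9 RPKM in Control, at 16.7 and 44.25 RPKM in BF, and at 8.10 and 23.8 RPKM in BA. It was singled out after its values were seen. In BA, then, PSMB9, PSMB10 and IFI47 rose while TAP1 was level.

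Promoters are printed for the immunoproteasome genes and the activator PSME2, and, beside them, for constitutive beta subunits. The window from 170 bases before to 30 bases after the annotated start is printed below, in the direction of the gene, from RefSeq on the GRCr8 assembly. In the first 4, capitals mark a pair of GAAA with any 2 bases between them, the core of the element that interferon-regulated factors bind, read on both strands. In PSMB5, PSMB6 and PSMB2 they mark TGACNNNGC or TGAGNNNGC, forms of the antioxidant response element, which NRF family factors bind. These shapes were searched on both strands, and no marked matches overlap.
PSMB10 (chr19:50743263-50743462, minus strand): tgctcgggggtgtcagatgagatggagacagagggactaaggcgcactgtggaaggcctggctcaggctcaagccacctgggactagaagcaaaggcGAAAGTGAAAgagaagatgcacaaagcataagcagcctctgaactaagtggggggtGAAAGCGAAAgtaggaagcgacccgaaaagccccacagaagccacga
PSMB8 (chr20:4657002-4657201, minus strand): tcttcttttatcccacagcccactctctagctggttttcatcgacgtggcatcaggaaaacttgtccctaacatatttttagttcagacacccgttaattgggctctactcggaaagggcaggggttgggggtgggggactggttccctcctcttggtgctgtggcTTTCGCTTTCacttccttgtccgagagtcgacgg
PSMB9 (chr20:4668830-4669029, plus strand): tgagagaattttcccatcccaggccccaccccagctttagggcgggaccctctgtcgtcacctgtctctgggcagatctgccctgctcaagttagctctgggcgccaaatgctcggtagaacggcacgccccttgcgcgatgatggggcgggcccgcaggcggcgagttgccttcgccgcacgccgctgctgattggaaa
PSME2 (chr15:33052722-33052921, minus strand): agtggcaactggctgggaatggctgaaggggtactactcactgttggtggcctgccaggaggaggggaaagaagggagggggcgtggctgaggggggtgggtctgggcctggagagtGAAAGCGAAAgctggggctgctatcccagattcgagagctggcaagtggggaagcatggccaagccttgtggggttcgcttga
PSMB5 (chr15:32047350-32047549, minus strand): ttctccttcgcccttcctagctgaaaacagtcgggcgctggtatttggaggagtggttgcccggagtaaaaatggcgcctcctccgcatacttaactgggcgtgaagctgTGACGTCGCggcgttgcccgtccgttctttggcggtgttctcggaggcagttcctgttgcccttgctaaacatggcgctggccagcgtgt
PSMB6 (chr10:55737718-55737917, plus strand): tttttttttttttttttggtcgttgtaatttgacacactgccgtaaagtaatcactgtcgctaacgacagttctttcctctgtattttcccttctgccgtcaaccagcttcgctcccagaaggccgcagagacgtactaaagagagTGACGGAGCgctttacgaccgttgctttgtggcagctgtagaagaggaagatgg
PSMB2 (chr5:144254888-144255087, plus strand): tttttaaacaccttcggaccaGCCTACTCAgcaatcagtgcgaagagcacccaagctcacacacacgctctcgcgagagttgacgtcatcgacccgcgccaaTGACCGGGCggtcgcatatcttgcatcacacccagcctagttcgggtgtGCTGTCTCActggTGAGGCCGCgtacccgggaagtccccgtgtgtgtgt

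PSMB10 holds the interferon shape at 73 and 17 bases before its start and PSMB8 from 4 bases before its start, while PSMB9 has none in this window. Over the whole 300 bases that RefSeq supplied, 39 of 42 genes had a promoter, and 7 of these 39 (17.9%) held this pair of GAAA, against 3.92% of all 33469 promoters. They are PSMB8 and PSMB10 of the immunoproteasome, the activator PSME2, the constitutive subunits PSMB3, PSMA4 and PSMD7, and the chaperone PSMG4. Among the 26S genes alone it was 3 of 30. An antioxidant shape of either form was found in 14 of 30 promoters of the 26S genes (46.7%), in none of the 3 immunoproteasome promoters and in 27.1% of all promoters. CCAAT boxes were in 19 of 39 (48.7%), against 37.5% of all. The TRiC chaperonin, a set of genes outside the proteasome, had 8 promoters. Of these, 4 held an antioxidant shape of either form, 5 a CCAAT box and 0 the interferon shape. Shares of the antioxidant shape and the CCAAT box above those of all promoters were thus not limited to proteasome genes. A match is a description of letters and not a binding site, and the interferon shape was added after the values were seen.

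The 6 ATPases of the regulatory particle form the ring that unfolds substrates. PSMC5 was at 72.9, 84.2, 96.7 and 112 RPKM in Control, at 50.2, 80.4, 71.7 and 98.3 RPKM in BF, and at 58.0, 70.2, 96.3 and 116 RPKM in BA, and rose in all 3 groups by 1.53-fold to 2.00-fold. PSMC4 was at 65.1, 63.9, 74.9 and 90.8 RPKM in Control, at 43.1, 65.2, 56.7 and 59.5 RPKM in BF, and at 56.0, 63.7, 78.4 and 94.5 RPKM in BA. In BF it was already highest at 4 h. PSMC6 was level between 0 h and 24 h, at 52.9, 37.2, 40.0 and 53.1 RPKM in Control, 38.5, 33.1, 32.4 and 40.9 RPKM in BF, and 52.8, 31.5, 38.5 and 50.03 RPKM in BA. The ratio of 24 h to 0 h was 1.00 in Control, 1.06 in BF and 0.948 in BA. Members of the same ring thus differed, from a mean log2 ratio over the groups of 0.0046 for PSMC6 to 0.85 for PSMC5.

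Among the 10 non-ATPase subunits, 10 genes were higher at 24 h in Control, 9 in BF and 10 in BA (68.6%, 72.5% and 69.3% of all genes). With columns rescaled to the same median gene, 10, 12 and 15 of these and the ATPases, 16 genes together, were higher. PSMD14, the deubiquitinase that removes the ubiquitin chain, had the largest log2 ratio of 24 h to 0 h outside the immunoproteasome when averaged over the groups, at 42.9, 36.9, 54.3 and 78.1 RPKM in Control, 27.8, 42.8, 45.4 and 66.5 RPKM in BF, and 32.0, 27.9, 45.3 and 79.9 RPKM in BA. It rose 1.82-fold in Control, 2.39-fold in BF and 2.50-fold in BA. PSMD13, a lid subunit, was at 47.4, 44.1, 55.0 and 83.7 RPKM in Control, at 36.2, 44.9, 46.6 and 69.2 RPKM in BF, and at 37.8, 35.4, 49.7 and 81.3 RPKM in BA. PSMD11, also a lid subunit, had the smallest difference of the class, at 37.8, 29.8, 28.1 and 45.5 RPKM in Control, 31.6, 28.2, 28.6 and 29.6 RPKM in BF, and 34.4, 24.7, 26.1 and 44.9 RPKM in BA. In BF it was, as deposited, the 1 gene of the 33 26S genes that was lower at 24 h than at 0 h. PSMD4, a ubiquitin receptor, ranged from 45.0 RPKM (BA, 4 h) to 94.8 RPKM (BA, 24 h).

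**Figure D3:**
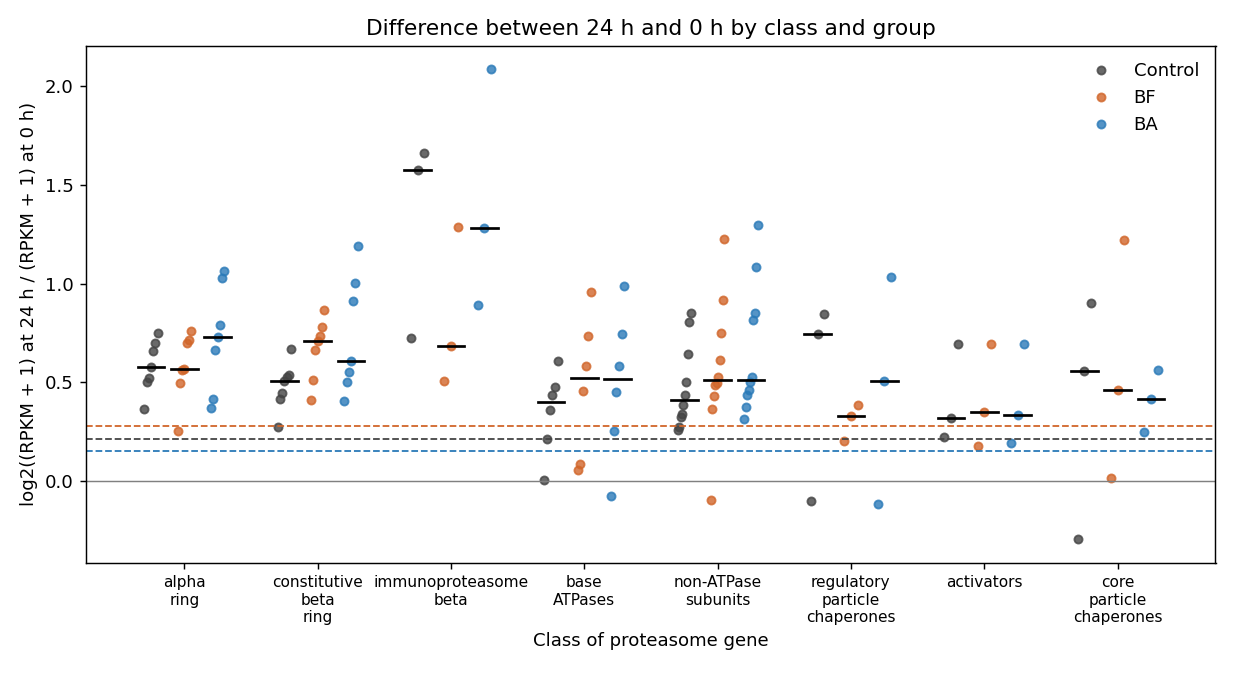
Log2 ratio of 24 h to 0 h (RPKM plus 1) for each of the 42 genes, by class and group, with black bars at class medians and dashed lines at the median of all 8459 genes in the colour of the group. Most points lie above the dashed lines, the immunoproteasome reaches 2.08 (PSMB10, BA), and the lowest point is PSMG1 in Control at -0.29.

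Chaperones of the regulatory particle, which hold the ATPases during assembly, were mixed between 0 h and 24 h. As deposited, 2 of 3 were higher at 24 h in Control, 3 in BF and 2 in BA (68.6%, 72.5% and 69.3% of all genes). Their median log2 ratios were 0.75, 0.33 and 0.51. With columns rescaled to the same median gene, 2, 0 and 2 were higher, with medians of 0.41, -0.07 and 0.26, so that the direction in BF depended on the scaling. PSMD5 was at 34.3, 19.2, 27.6 and 62.4 RPKM in Control, at 27.6, 18.6, 27.6 and 34.9 RPKM in BF, and at 35.0, 10.1, 25.5 and 50.1 RPKM in BA. As deposited, its highest column exceeded its lowest 6.18-fold, the widest range of the 42 genes. These were Control at 24 h and BA at 4 h, the columns with the highest and the lowest median gene. The ranges were not recomputed after rescaling, so that this rank may depend on the scaling. PSMD5 was singled out after its values were seen. PSMD9 rose in Control (20.6 to 35.1 RPKM) and BA (17.8 to 37.5 RPKM) between 0 h and 24 h, and was at 18.5 and 24.4 RPKM in BF. PSMD10, also known as gankyrin, was at 22.4 and 20.8 RPKM in Control, 16.5 and 19.2 RPKM in BF, and 21.7 and 19.9 RPKM in BA.

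The chaperones of the core particle were also mixed. PSMG1 and PSMG2 form a pair that builds the alpha ring. PSMG1 was at 37.4, 34.6, 29.4 and 30.3 RPKM in Control, at 27.4, 22.6, 29.3 and 27.7 RPKM in BF, and at 24.3, 18.9, 29.2 and 29.0 RPKM in BA. PSMG2 was at 20.1, 22.0, 22.5 and 30.1 RPKM in Control, at 10.47, 16.5, 16.8 and 25.7 RPKM in BF, and at 15.5, 13.3, 15.5 and 23.3 RPKM in BA. Within this pair, PSMG2 was higher at 24 h than at 0 h in every group, by 1.49-fold to 2.46-fold, and PSMG1 was lower in Control. PSMG4 was at 20.4, 16.5, 21.4 and 38.9 RPKM in Control, at 21.7, 18.4, 20.6 and 30.3 RPKM in BF, and at 20.8, 13.5, 20.6 and 28.1 RPKM in BA.

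The activators open the core without ubiquitin. PSME1, an interferon-induced activator, was at 134, 104, 92.8 and 157 RPKM in Control, at 121, 103, 91.0 and 137 RPKM in BF, and at 137, 81.8, 81.5 and 156 RPKM in BA. It dipped at 12 h, where most core genes were above 0 h, and was at its lowest there in each group. Its partner PSME2, whose promoter is printed above, was listed at 1.28 to 4.41 RPKM, and RefSeq lists further loci named after it, so that its level is uncertain. PSME3, the nuclear activator, was at 17.9, 21.9, 20.7 and 22.6 RPKM in Control, at 10.6, 22.0, 15.2 and 17.8 RPKM in BF, and at 15.7, 20.2, 15.8 and 20.1 RPKM in BA. It rose 2.07-fold between 0 h and 4 h in BF, the largest rise of the 42 genes over that interval. The inhibitor PSMF1 was matched by gene identifier to a row under another symbol, at 43.2, 28.2, 27.9 and 33.8 RPKM in Control, 33.9, 23.2, 25.3 and 33.9 RPKM in BF, and 32.2, 14.1, 25.3 and 34.1 RPKM in BA.

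At 4 h the direction differed between the groups as deposited. The median log2 ratio of the 33 26S genes to 0 h was -0.06 in Control, 0.17 in BF and -0.19 in BA, and it was 0.06, 0.19 and 0.07 with every column rescaled to the same median gene, so that the sign in Control and BA depended on the scaling. Over all genes the deposited medians were -0.19, -0.07 and -0.32. Of the 42 genes, 28 were lower at 4 h than at 0 h in Control (66.5% of all genes) and 32 in BA (71.2%), close to the background in both groups, while 30 were higher in BF (44.2%). In BF 6 genes rose (12.5% of all genes), namely PSMC4, PSMC5, PSMD12, PSMD14, PSME3 and PSMG2, which as 14.3% of the 42 is near the background. In BA 9 genes fell, or 21.4% of the 42 against 30.9% of all genes, and PSMD5 fell furthest, from 35.0 to 10.1 RPKM. The BA column at 4 h is the one with 30.9% of its sum on ALB, and its part in these values was not tested beyond the rescalings. With columns rescaled to the same sum without ALB, the medians of the 26S genes kept their signs.

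At 12 h more of the core genes than of the regulatory genes were above 0 h. Of the 14 core genes, 13 were higher at 12 h than at 0 h in Control, 14 in BF and 12 in BA (37.0%, 44.6% and 36.5% of all genes). Of the 16 subunits of the regulatory particle, 9, 12 and 8 were higher. As deposited, its 3 assembly chaperones were all lower in each group (62.8%, 55.1% and 63.3% of all genes). The median log2 ratio was 0.22, 0.26 and 0.27 for core genes and 0.07, 0.22 and -0.0065 for the 16 subunits. After rescaling to the same median gene it was 0.43, 0.30 and 0.43 for core genes and 0.28, 0.27 and 0.15 for the 16 subunits, so that the sign for the latter in BA depended on the scaling, and in BF the medians were close either way. From 12 h to 24 h the 16 subunits had the larger median log2 ratio, at 0.40, 0.35 and 0.62 against 0.25, 0.33 and 0.43 for core genes, and after rescaling the values were -0.14, -0.11 and 0.21 against -0.30, -0.13 and 0.02, so that the signs in Control and BF depended on the scaling. For the 3 chaperones the direction from 0 h to 12 h also depended on the scaling, since 2, 1 and 2 were higher after rescaling. Setting the chaperones apart here was chosen after the values were seen.

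Between the groups, BF had the lowest proteasome levels at 24 h. All 42 genes were lower in BF than in Control (71.3% of all genes) and 39 were lower in BF than in BA (37.6%). The median log2 ratio of the 33 26S genes was -0.29 for BF against Control, beside -0.11 for all genes, and -0.26 for BF against BA, beside 0.06 for all genes. By 1.5-fold or more, 6 genes were lower in BF than in Control (4.05% of all genes), namely PSMB9, PSMB10, PSMC4, PSMD5, PSMD11 and PSME2, and 4 were lower than in BA (2.66%), namely PSMB9, PSMC4, PSMD9 and PSMD11. BA and Control were close, with a median log2 ratio of -0.03, which was 0.17 after rescaling to the same median gene, so that its sign depended on the scaling. Because the comparisons share columns, they are not independent of each other.

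The lower level in BF was already there at 0 h. Of the 42 genes, 40 were lower in BF than in Control at 0 h (73.9% of all genes) and 35 lower than in BA (61.9%), and the median log2 ratio of the 26S genes was -0.37 and -0.19, beside -0.18 and -0.08 for all genes. With columns rescaled to the same median gene, the 26S medians of BF against Control were -0.16 at 0 h and -0.14 at 24 h, and those of BF against BA were -0.08 and -0.31. The log2 ratio of 24 h to 0 h was larger in BF than in Control for 20 of the 33 26S genes (60.6%, beside 60.0% of all genes), with a median difference of 0.11 beside 0.07 for all genes. It was smaller in BF than in BA for 22 (66.7%, beside 32.5%), with a median difference of -0.14 beside 0.14. It was larger in BA than in Control for 28 (84.8%, beside 41.9%), with a median difference of 0.18 beside -0.06.

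At 24 h the order of BF and BA followed whether a gene's symbol was listed in the DNA replication gene set of the study, a list of 192 symbols that includes 42 proteasome symbols. Of the genes described here, 37 are in that set by symbol and 5 are not. All 37 listed genes were lower in BF than in BA at 24 h, with a median log2 ratio of -0.26 and values from -0.70 to -0.05. Among the 5 others, PSMA3L, PSMG2 and PSMG4 were higher in BF (0.12, 0.14 and 0.10) and PSME3 and PSMG1 were lower (-0.16 and -0.06). Beyond the 42 genes, 7 accessory factors of the proteasome that the set does not list were all higher in BF than in BA at 24 h, by 0.02 to 0.26. They include POMP, the maturation factor of the core, at 374 RPKM in Control, 350 RPKM in BF and 291 RPKM in BA, and USP14, a deubiquitinase of the 26S particle, at 43.4, 37.4 and 31.9 RPKM.

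The set does list PSMA3 and PSMF1, which the table carries under other symbols. Their rows were at 34.3 and 31.5 RPKM (PSMA3L) and at 33.9 and 34.1 RPKM (PSMF1) in BF and BA at 24 h, so that PSMA3L was higher in BF and PSMF1 was within 1 RPKM. At the other times the same split was not seen. At 0 h, 32 of the 37 listed genes (86.5%) and 10 of 14 proteasome genes without a listed symbol (71.4%), which are the 5 above, the 7 accessory factors and 2 further rows, were lower in BF than in BA, beside 61.9% of all genes. At 4 h 4 of 37 (10.8%) and 2 of 14 (14.3%) were lower, beside 32.2% of all genes, and at 12 h 21 of 37 (56.8%) and 8 of 14 (57.1%), beside 52.0%. At 24 h it was 37 of 37 and 4 of 14 (28.6%), beside 37.6% of all genes, so that the share of genes without a listed symbol was near the background. Of the 96 other genes of the set that averaged 1 RPKM or more, 92 were lower in BF than in BA at 24 h (95.8%, median log2 ratio -0.87). How the set was drawn up is not given in the sources used here, and a list chosen with these columns in view would be no independent evidence of its direction. This split was noticed after the values were seen, and its cause was not tested.

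**Figure D4:**
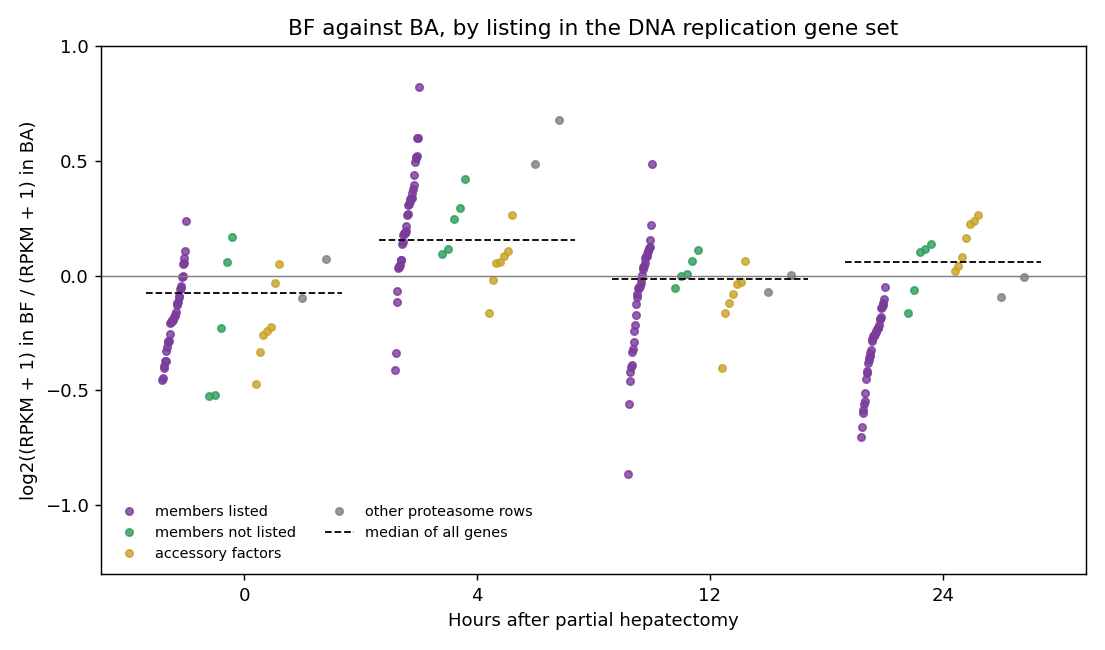
Log2 ratio of BF to BA (RPKM plus 1) at 0, 4, 12 and 24 h after PH for the 37 proteasome genes listed by symbol in the DNA replication set, the 5 not listed, 7 accessory factors and 2 further proteasome rows, with a dashed line at the median of all 8459 genes. At 24 h every listed gene lies below 0 and every accessory factor above it, while at 0, 4 and 12 h the classes overlap.

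Accessory and shuttle genes of the ubiquitin pathway were mostly higher at 24 h, as were most genes of the table. The 7 accessory factors were all higher at 24 h than at 0 h in each group, with medians on the log2 scale of 0.35 in Control, 0.64 in BF and 0.34 in BA. Of 8 shuttle and segregase genes, which bring tagged proteins to the proteasome, 6, 7 and 6 were higher. Over all genes the shares were 68.6%, 72.5% and 69.3%. The median log2 ratios of the shuttle and segregase genes were 0.12, 0.27 and 0.09, below the 0.21, 0.28 and 0.15 of all genes. NFE2L1, the transcription factor that raises proteasome genes when proteasomes are blocked, was at 20.5 and 27.7 RPKM at 0 h and 24 h in Control, 28.4 and 32.5 RPKM in BF, and 24.0 and 32.6 RPKM in BA. At 0 h its level was highest in BF, whereas that of NFE2L2, a stress-responsive factor of the same family, was lowest in BF, at 56.4 RPKM against 79.7 RPKM in Control and 69.0 RPKM in BA.

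Outside the family, the genes whose course over the 12 columns lay nearest to the median course of the 26S genes were sought by the root mean square distance of log2 values, each profile centred on its own mean. The 10 nearest genes without a PSM symbol lay at distances of 0.09 to 0.10. The nearest were GNAI3, a G protein subunit, a row under the symbol d that is described as a non-ATPase subunit of the 26S proteasome, and EIF2A, a translation initiation factor. UBXN6 and UBE2M of the ubiquitin system were also among the 10. Of the proteasome genes themselves, PSMB1 was the nearest at 0.06.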

How the data were processed

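Poly(A) RNA of rat liver was sequenced in single reads. The labels name CASAVA, Bowtie 0.12.2 and the builds mm8 and rn4, without the role of each. The authors deposited RPKM (reads per kilobase, scaled to the mapped reads), with 2 runs combined into 1 value per group and time, so that 12 columns and no replicates were compared. Read counts per sample are unknown, and no interval can be given. From the deposited RPKM, log2 ratios were computed after adding 1 RPKM, over the 8459 genes that averaged 1 RPKM or more, and a ratio of 1.5-fold or more was called. No test was run. The calculation was tested on simulated data.

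Values in all columns were printed for the immunoproteasome subunits, PSMB5, PSMB6, PSMB7, the activators, PSMF1 and the PSMG genes. Within each ring or lid class they were printed for the 2 genes with the largest and the 1 with the smallest mean log2 ratio of 24 h to 0 h, and for the 1 with the largest difference of BF at 24 h from the mean of the other groups. PSMA2, PSMD5, PSMD9, PSMD10, PSMB4 and PSMD4 were added after their values were seen, as were the interferon motif and the split by listed symbol. The genes and lists were chosen with earlier results of these data known. Promoters came from RefSeq (GRCr8). Alternatives were another pseudocount, other filters and folds, rescaled columns, exchanged group names and means over lists. Python 3.11.15, numpy 2.4.6, pandas 2.3.3 and matplotlib 3.10.9 were used.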

Additional observations from a re-analysis of the deposited data

Results flagged for a closer look

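From 0 h to 4 h after PH the deposited values differed in direction between the groups. The median log2 ratio of the 33 26S genes was -0.063 in Control, 0.1733 in BF and -0.1887 in BA, beside -0.19, -0.07 and -0.32 for all genes. With columns rescaled to the same median gene the medians were 0.0617, 0.1868 and 0.0736, all of the same sign. Each group had 1 column per time, and the difference between the groups was not tested.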

How the results depend on the processing

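Of 126 recomputed values, 100 kept their direction and size, 21 moved and 5 turned. The 100 include the medians under both filters on low values, which left their gene lists unchanged and so could not move them. With columns rescaled to the same median gene, the median log2 ratio of the 26S genes from 0 h to 24 h was 0.1655 in Control, 0.1487 in BF and 0.3363 in BA, from 0 h to 4 h 0.0617 in Control and 0.0736 in BA, which turned, and from 0 h to 12 h 0.3411 in Control and 0.2856 in BA. At 24 h it was -0.1426 for BF against Control and 0.1651 for BA against Control, which turned. The immunoproteasome medians were 1.2375, 0.2753 and 1.0369, and 2, 3 and 13 genes rose. As means over the list the immunoproteasome values were 1.3203, 0.8246 and 1.419. A 2-fold limit left 2, 3 and 9 genes. With the names BF and BA exchanged, the 24 h values were -0.0289 for BF against Control, 0.261 for BF against BA, which turned, and -0.287 for BA against Control, by construction. Over proteasome genes without a listed symbol, an alternative chosen after seeing the data, they were 0.0926 for BF against BA, which turned, and -0.2728 for BA against Control. The cause was not tested. A pseudocount of 0.1 RPKM and columns rescaled to the same sum without ALB moved none of these results beyond the limits set. Nor did either filter on low values, which could alter only the counts of genes that rose. No paired analysis was possible because each group and time has 1 combined column. Without replicates or depth, small differences and low genes such as PSME2 cannot be told from error.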
